A study of Mus musculus with 2 samples.

Results

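Ligands, receptors, fringes and Hes targets of the Notch pathway were measured in the cerebral cortex of wild type and of homozygous Pax6-/- embryos, both of the NMRI mouse strain and taken at E14.5. A list of 10 genes by role defined the set: the ligands Dll1 and Dll3, the receptors Notch1, Notch2 and Notch3, the fringe glycosyltransferases Lfng and Mfng, the target genes Hes1 and Hes5, and the inhibitor Numb. Every probe set of the Affymetrix array that GEO's platform annotation ties to 1 of these symbols alone was taken, which gave 14 probe sets for 9 of the 8251 genes named on the array. Dll3 has no such probe set in the annotation used here and has no value below.

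Each genotype was measured on 1 array of total RNA, and the labels name neither the Pax6 allele nor its construction. The series' design mentions 3 embryos of each genotype, but whether their RNA was pooled is not stated. There is no replicate array, hence no test between genotypes, and every difference is that of 2 arrays. Genes are described by size, and 2-fold is the threshold. Pax6, with 1 probe set, measured 1169 in wild type and 447 in mutant cortex, and where it lies relative to the mutation is not stated. Of the listed markers of the cortical projection lineage, Eomes, Tbr1, Neurod2 and Neurod6 were measured, and their signals summed to 11521 in wild type and 4543 in mutant cortex. That of 9 genes of the ventral forebrain, the subpallium, was 933 and 11839. Dlx1 and Dlx2 carried most of the latter, with 5982 and 4180; 5 of the 9 were below the signal filter described below, and the median log2 ratio of the 9, mutant over wild type, was 0.97. Other cell types that a dissection can hold gave sums of 5370 and 5525 over 10 meningeal genes, 2098 and 3556 over 8 microglial genes (median log2 ratio 0.11, with the probe sets of C1qb at 1.14 and -0.93) and 16730 and 14308 over 7 erythroid genes. Of these, 4 meningeal, 2 microglial and 2 erythroid genes were below the filter. Fbln1, at 2497 and 1931, and Col1a2, at 1828 and 2436, gave most of the meningeal sum. Another Col1a2 probe set read 31.1 and 59.1. Csf1r, at 372 and 1284, gave most of the microglial rise, while its other probe set had 374 and 513. Hba-a1 and Hbb-y gave most of the erythroid sum. In bulk tissue fewer cells of a type and less RNA per cell cannot be told apart. The part of these marker differences in the values below was not tested.

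Notch signalling passes between touching cells. A Delta or Jagged ligand on one cell binds a Notch receptor on its neighbour, the receptor is cut, and its intracellular part enters the nucleus, where with the DNA-binding protein RBPJ it switches on Hes genes. In the embryonic cortex, cells that begin neurogenesis carry proneural basic helix-loop-helix factors such as Neurog2, which activate Delta genes, whereas Hes1 and Hes5 repress proneural genes and keep radial glia as progenitors. Fringes add sugars to the Notch receptor and so change which ligands it answers to, and Numb counteracts Notch within the cell.

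Start-site sequences of the ligand Dll1, the fringe Lfng and the target Hes5 are shown because they carry letters to which the regulators just named are known to bind. They come from RefSeq, build GRCm38.p6, and run 5′ to 3′ along the gene from 250 bases before to 50 bases after an annotated start. Capitals mark CAGCTG, an E-box of the kind that proneural factors bind, and TGGGAA, the core of the RBPJ motif (TTCCCA on the other strand).
Dll1, minus strand of chr17:15376883-15377182: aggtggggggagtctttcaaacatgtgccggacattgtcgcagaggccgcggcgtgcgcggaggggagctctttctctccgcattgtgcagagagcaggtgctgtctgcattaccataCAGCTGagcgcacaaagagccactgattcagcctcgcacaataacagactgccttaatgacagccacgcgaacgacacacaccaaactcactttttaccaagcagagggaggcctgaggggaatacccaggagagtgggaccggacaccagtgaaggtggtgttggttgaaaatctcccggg
Lfng, plus strand of chr5:140607091-140607390: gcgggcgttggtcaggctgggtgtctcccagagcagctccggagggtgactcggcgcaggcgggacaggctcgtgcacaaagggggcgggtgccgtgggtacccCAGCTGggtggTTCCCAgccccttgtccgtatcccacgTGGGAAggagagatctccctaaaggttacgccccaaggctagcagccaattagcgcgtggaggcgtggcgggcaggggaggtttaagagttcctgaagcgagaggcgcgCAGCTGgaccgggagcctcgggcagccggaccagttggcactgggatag
Hes5, plus strand of chr4:154960673-154960972: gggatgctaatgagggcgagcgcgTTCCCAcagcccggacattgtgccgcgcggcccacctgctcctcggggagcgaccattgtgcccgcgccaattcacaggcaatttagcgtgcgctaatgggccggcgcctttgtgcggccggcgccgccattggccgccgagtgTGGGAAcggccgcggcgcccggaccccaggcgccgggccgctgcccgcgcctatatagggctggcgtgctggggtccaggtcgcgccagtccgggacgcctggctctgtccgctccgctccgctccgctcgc
The Dll1 window holds 1 CAGCTG, 132 bases upstream of the start. The window of the other Dll1 start, chr17:15375774-15376073, holds neither motif. Lfng has both, with CAGCTG 146 bases upstream and at base 2 of the transcript, and the RBPJ core 135 and 108 bases upstream on opposite strands. In Hes5 the core lies 226 and 82 bases upstream, also on opposite strands. Both strands were searched, and the marked motifs do not overlap. Of 32851 windows of the same length, 16.3% hold CAGCTG and 25.6% hold TGGGAA, so a match is common and describes the letters only. The table held 11 windows for 8 of the 10 genes. The E-box was in 3 windows, those shown for Dll1 and Lfng and that of Dll3, and the RBPJ core in 2. Hes1 and Mfng had no window, so neither was searched.

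Dll1 was the only measured member at least 2-fold apart, and it was lower in the mutant. Its probe set 92931_at measured 1174 in wild type and 477 in Pax6-/- cortex, or 0.406 of the wild type signal. Signals were put on a log2 scale after adding a pseudocount of 81.5, and ratios were centred on their median, so that folds of dim genes are understated. On that scale the log2 ratio, mutant over wild type, was -1.21, a 2.32-fold lower value. The technical spread at this signal, taken from genes with more than 1 probe set, was 0.54 and says nothing about differences among embryos. Of the 5585 genes above the signal filter, 197 had a ratio as low or lower. The second Dll1 probe set, 161634_r_at, had signals of 11.6 and 13.5, far below the filter level of 166, and gives no measure of the gene. The Dll1 difference thus rests on 1 probe set.

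The receptors had ratios closer to 0 than Dll1. Notch1, the main Notch receptor of cortical progenitors, had nearly equal signals of 1740 and 1739 at probe set 97497_at. Its other probe set, 162204_r_at, had 625 in wild type and 911 in mutant cortex, which is 0.44 as a log2 ratio. These ratios, -0.05 and 0.44, lay 0.49 apart, less than their combined technical spread of 0.66. Dll1 was 1.17 lower than Notch1 on the log2 scale, against a combined technical spread of 0.66. As Dll1 was the member with the lowest ratio, this gap is wide by selection.

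Notch2, a related receptor, had signals of 345 and 392 at probe set 104188_at, a log2 ratio of 0.11. At 101342_at it had 94.1 in wild type and 256 in the mutant. That probe set lay below the filter, and its log2 ratio of 0.90 ran from 0.51 to 1.39 with the choice of processing. Both Notch2 probe sets were brighter on the mutant array, but by unequal amounts, and their ratios lay 0.79 apart against a combined technical spread of 1.02.

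Notch3, a receptor of progenitors and of the mural cells that wrap vessels, was the receptor with the lowest ratio. Its signal was 869 in wild type and 571 in mutant cortex. The log2 ratio of -0.59 compares with a technical spread of 0.54. Of 8 listed mural genes 7 were measured, and their signals summed to 1039 in wild type and 1394 in mutant cortex; 2 of the 7 passed the filter and Acta2 was at 16.9 and 28.8. Most of the sum came from Mcam, at 231 and 462, and Tagln, at 363 and 471, while Des and Kcnj8 had log2 ratios of -0.40 and -0.45. The part of mural cells in the Notch3 value was not tested. Notch3 and Notch1 differed by 0.54, less than their combined technical spread of 0.66.

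**Figure D1:**
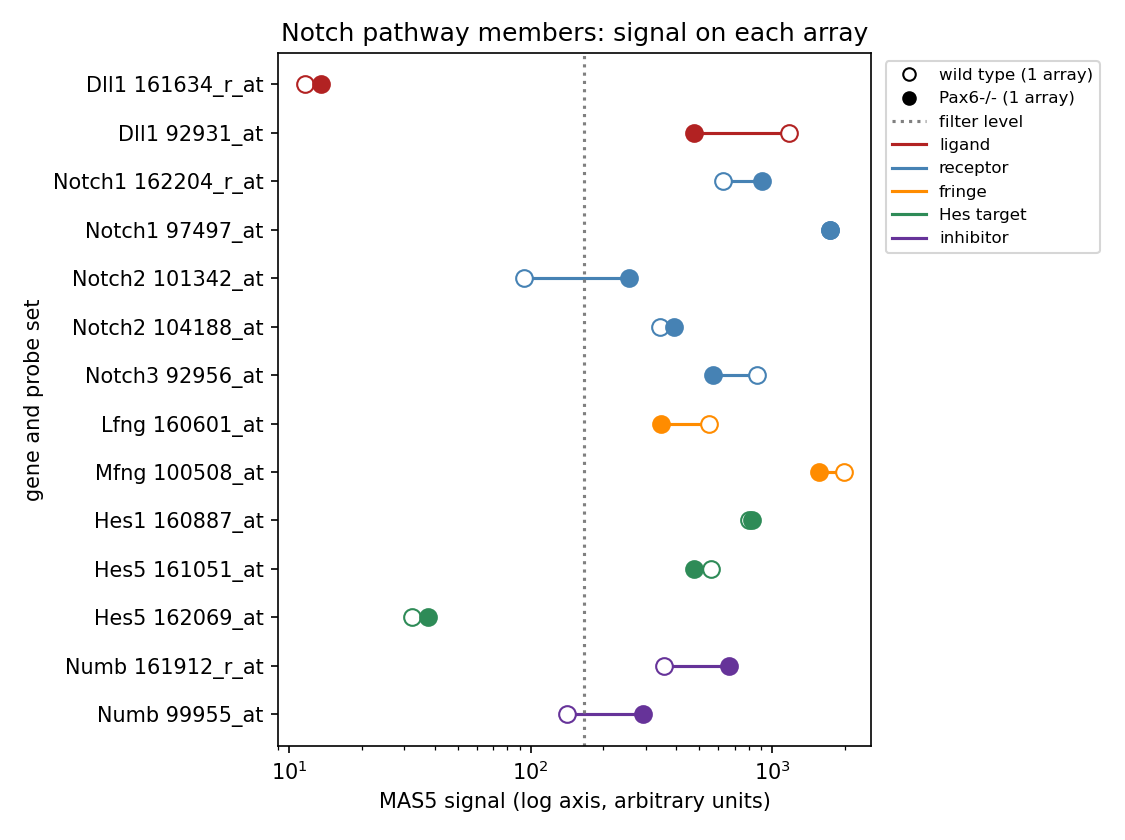
Signal of each of the 14 member probe sets on a log axis, with open circles for the wild type array, filled circles for the Pax6-/- array and colours for the role. The Dll1 signal is 1174 on the wild type and 477 on the mutant array, both Numb probe sets lie higher in the mutant, and the circles of Notch1 97497_at overlap; 3 probe sets fall below the filter.

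Both measured fringes had lower signals in the mutant, by less than 2-fold. Lfng, the fringe that oscillates with the segmentation clock in somites and is also expressed in forebrain progenitors, had 550 in wild type and 346 in mutant cortex. Its log2 ratio of -0.61 was smaller than the technical spread of 0.72 at its signal. Mfng, a fringe linked to newborn neurons, had 1995 and 1564, a log2 ratio of -0.38, equal to its technical spread of 0.38. The 2 fringes differed from each other by 0.23, well within their combined technical spread of 0.82. Rfng, the third mammalian fringe and not a member of the set, had 1254 in wild type and 1491 in mutant cortex, with a log2 ratio of 0.19.

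The Hes targets, which are read as the output of Notch signalling, were nearly equal on both arrays. Hes1 measured 801 in wild type and 828 in mutant cortex, and its centred log2 ratio rounded to 0.00. Hes5 had 559 and 476 at probe set 161051_at, which is -0.25 as a log2 ratio, within the technical spread of 0.54. The second Hes5 probe set, 162069_at, was at 32.3 and 37.7, below the filter. Dll1 was 1.21 lower than Hes1 and 0.97 lower than Hes5 on the log2 scale, each more than the combined technical spread of 0.76. Dll1 had the lowest ratio of the members, so these gaps are wide by selection and test nothing. With no replicate array, the difference between the ligand and the targets was not tested.

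Numb, an adaptor protein that is passed unequally to daughter cells and antagonises Notch, was the member with the highest ratio. The signal was 358 in wild type and 662 in mutant cortex at probe set 161912_r_at, and 142 and 294 at 99955_at. The log2 ratios were 0.71 and 0.70, or 1.64-fold and 1.63-fold higher, against technical spreads of 0.54 and 0.72. The wild type signal of the second lay below the filter level, so that it passed only through the mutant array and is no independent support for the first. Of 5585 genes, 581 had a ratio as high as 0.71 or higher. Numb lay 1.32 above Lfng and 1.30 above Notch3, more than the combined technical spreads of 0.90 and 0.76. Among the members Numb had the highest ratio, and Lfng and Notch3 the lowest after Dll1. Such pairs are extremes of the same values, so these gaps are wide by selection and test nothing.

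**Figure D2:**
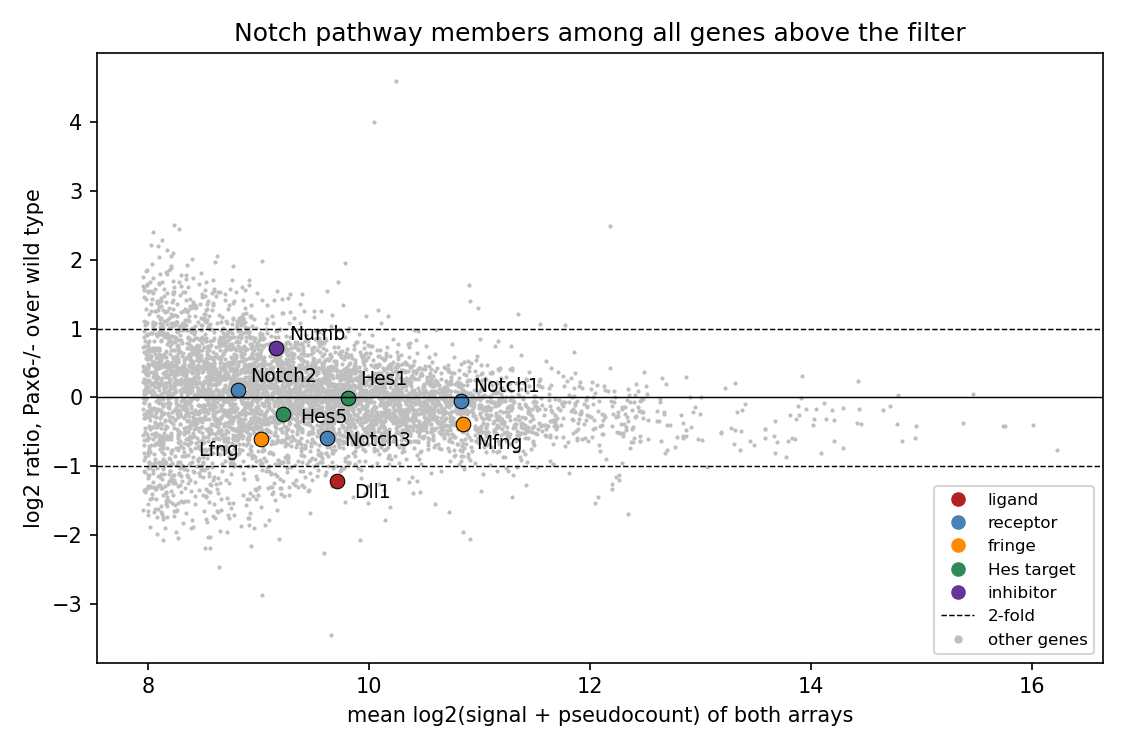
Log2 ratio, Pax6-/- over wild type, against the mean log2(signal + pseudocount) of both arrays for 5585 genes, 1 probe set each; members are coloured by role and dashed lines mark 2-fold. Dll1 at -1.21 lies beyond the lower line, and the 8 other members lie between the lines, from -0.61 for Lfng to 0.71 for Numb.

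Counted over the 9 measured genes, each by its brightest probe set and all above the filter, 1 was lower by 2-fold or more and 0 were higher by that much. Among all 5585 genes above the filter, 5.46% passed 2-fold on the lower side and 5.05% on the higher side, together 10.5%. The members' share of 11.1% past 2-fold was near that background. The share of genes past 2-fold depended on the signal: it was 19.3% below a signal of 472, 5.93% between 472 and 830, where Dll1 lay by its mean log2 value, and 2.98% above 830. At 1.5-fold, 3 members were lower (Dll1, Lfng and Notch3) and Numb was higher, where 15.1% and 14% of all genes passed on the lower and higher side, together 29.1%. The median log2 ratio was -0.25 over the 9 members and -0.02 over all genes. By role it was -0.05 for the 3 receptors, -0.49 for the 2 fringes and -0.12 for the 2 Hes targets.

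**Figure D3:**
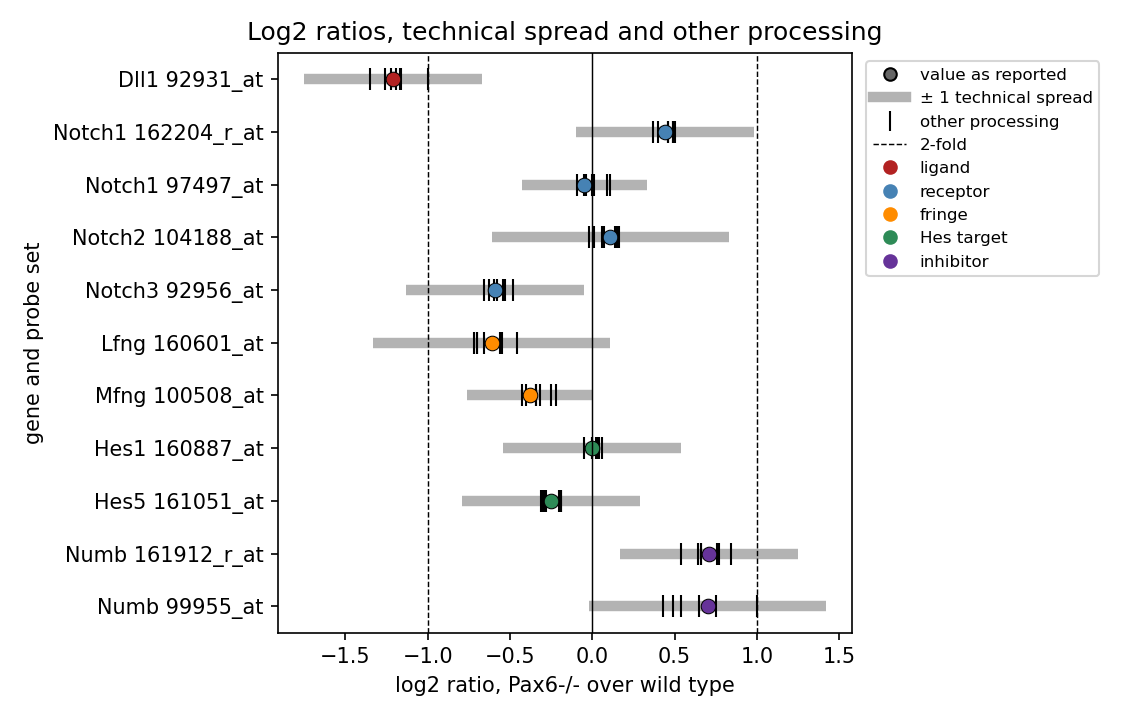
Log2 ratio, Pax6-/- over wild type, of the 11 member probe sets above the filter, with grey bars of 1 technical spread on either side and black ticks for the same value under other processing; dashed lines mark 2-fold. Notch1 97497_at, Notch2 104188_at and Hes1 have ticks on both sides of 0, and the Dll1 ticks run from -1.35 to -1.0.

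The direction held under quantile and loess scaling, without centring and with the other pseudocounts and filters for Dll1 92931_at, Notch3, Lfng, Mfng, Hes5 161051_at, Notch1 162204_r_at and both Numb probe sets (the 60th-percentile filter left out Numb 99955_at), and changed sign for Notch1 97497_at, Notch2 104188_at and Hes1, all near 0. Dll1 ran from -1.35 to -1.0, and with the larger pseudocount it fell just short of 2-fold. The brighter Numb probe set ran from 0.54 to 0.84.

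The proneural factors that activate Delta genes were measured on the same arrays. Neurog2, the main proneural factor of the dorsal forebrain, had 3489 in wild type and 877 in mutant cortex, with a log2 ratio of -1.94. Neurod1, a factor of later neuronal differentiation, had 889 and 289, a log2 ratio of -1.43. Of the 6 proneural activators with a probe set these 2 passed the filter; the others were Neurog1, Neurog3, Atoh1 and Neurod4. Their E protein partners were closer to equal, with Tcf3 at 0.71, Tcf12 at 0.16 and Tcf4 at -0.31. Neurog2 was 0.73 lower than Dll1 on the log2 scale, against a combined technical spread of 0.66.

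Radial glial genes, which mark the cells that receive the Notch signal, went in both directions. All 9 with a probe set passed the filter, 3 of them higher and 6 lower, with a median log2 ratio of -0.44. These include Pax6 itself, the lowest at -1.29; without it 3 were higher and 5 lower, with a median of -0.33. Fabp7, a lipid-binding protein gene known as a Notch target in radial glia, was at -0.44, with signals of 4753 and 3590. Nes, the intermediate filament nestin, was at 0.17. Sox2, a progenitor transcription factor, was at 1.06, with signals of 2304 and 5042, and Gli3 was at 0.89. The Sox2 value rests on 1 probe set, 100009_r_at. Vim and the brighter Prom1 probe set were both at -0.60, with the other Prom1 probe set at -0.04, and Ptprz1 was at -0.87 and Tnc at -0.21.

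A list of 64 other Notch pathway genes, ordered by role, had 33 genes with a probe set and 28 above the filter; the 5 below it were Jag2, Cntn1, Psen2, Tle4 and Hes2. Of the 28, 2 passed 2-fold on the higher side and 3 on the lower side, or 17.9% against the 10.5% of all genes, with a median log2 ratio of -0.13. Without Adam17 and Rbpjl, which passed the filter through 1 array each, 3 of 26 were past 2-fold, or 11.5%. Both were among the 5 past 2-fold, so leaving them out lowers the share by construction. The 10.5% of all genes was not trimmed in this way, so it is not a like comparison for the 11.5%. Notch4, whose mutant signal of 160 was just below the filter level of 166, stayed in. At 1.5-fold the list had 8 of 28, or 28.6%, against 29.1% of all genes, so its share was near the background. Dlk1, a Delta-like protein that lacks the receptor-binding domain of true ligands, was 3.19-fold higher, with signals of 383 and 1444. Adam17, a metalloprotease that can cut Notch at the cell surface, was at 84.3 and 563, and passed the filter only through the mutant array. Its log2 ratio of 1.91 ran from 1.23 to 2.69 with the processing.

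The genes at least 2-fold lower were Rbpjl, Hes3 and Dtx2. Rbpjl, a relative of Rbpj known from the pancreas, was at 388 in wild type and 75.9 in mutant cortex and passed the filter only through the wild type array. Hes3, a further Hes repressor of early neural progenitors, had 540 and 199, a log2 ratio of -1.19. Dtx2, a Deltex ubiquitin ligase that acts on Notch, had 713 and 304, a log2 ratio of -1.09. With the larger pseudocount each of the 3 fell short of 2-fold, with Rbpjl at -0.99, Hes3 at -0.84 and Dtx2 at -0.83.

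The remaining pathway genes above the filter lay within 2-fold. Rbpj, the DNA-binding partner of cleaved Notch, had 594 in wild type and 920 in mutant cortex. Its log2 ratio of 0.52 was within the technical spread of 0.54. Crebbp, a histone acetyltransferase of the nuclear activator complex, was 1.62-fold lower, at 857 and 516, beyond its technical spread of 0.54. Among receptor cleavage genes, Aph1a of the gamma-secretase complex was at 0.61, Psenen of the same complex at -0.01 and the convertase Furin at -0.07. The Adam10 probe sets, for the main surface protease, went opposite ways at 0.43 and -0.56. Of 7 corepressor genes that passed the filter, 5 had a lower and 2 a higher signal in the mutant, from -0.59 for Ctbp2 to 0.36 for Tle1, although the second Ctbp2 probe set was at 0.33. Of the other targets, Hey1 had 1838 and 1638, a log2 ratio of -0.20, and Hes6, a Hes relative that promotes neuronal differentiation, was at 0.37. Notch4, the endothelial receptor, had 188 and 160, a log2 ratio of -0.20. The summed signal of 9 endothelial genes was 1885 in wild type and 2271 in mutant cortex. Of the 4 above the filter, 2 were higher and 2 lower, from 1.06 for Cldn5 to -0.96 for Eng.

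**Figure D4:**
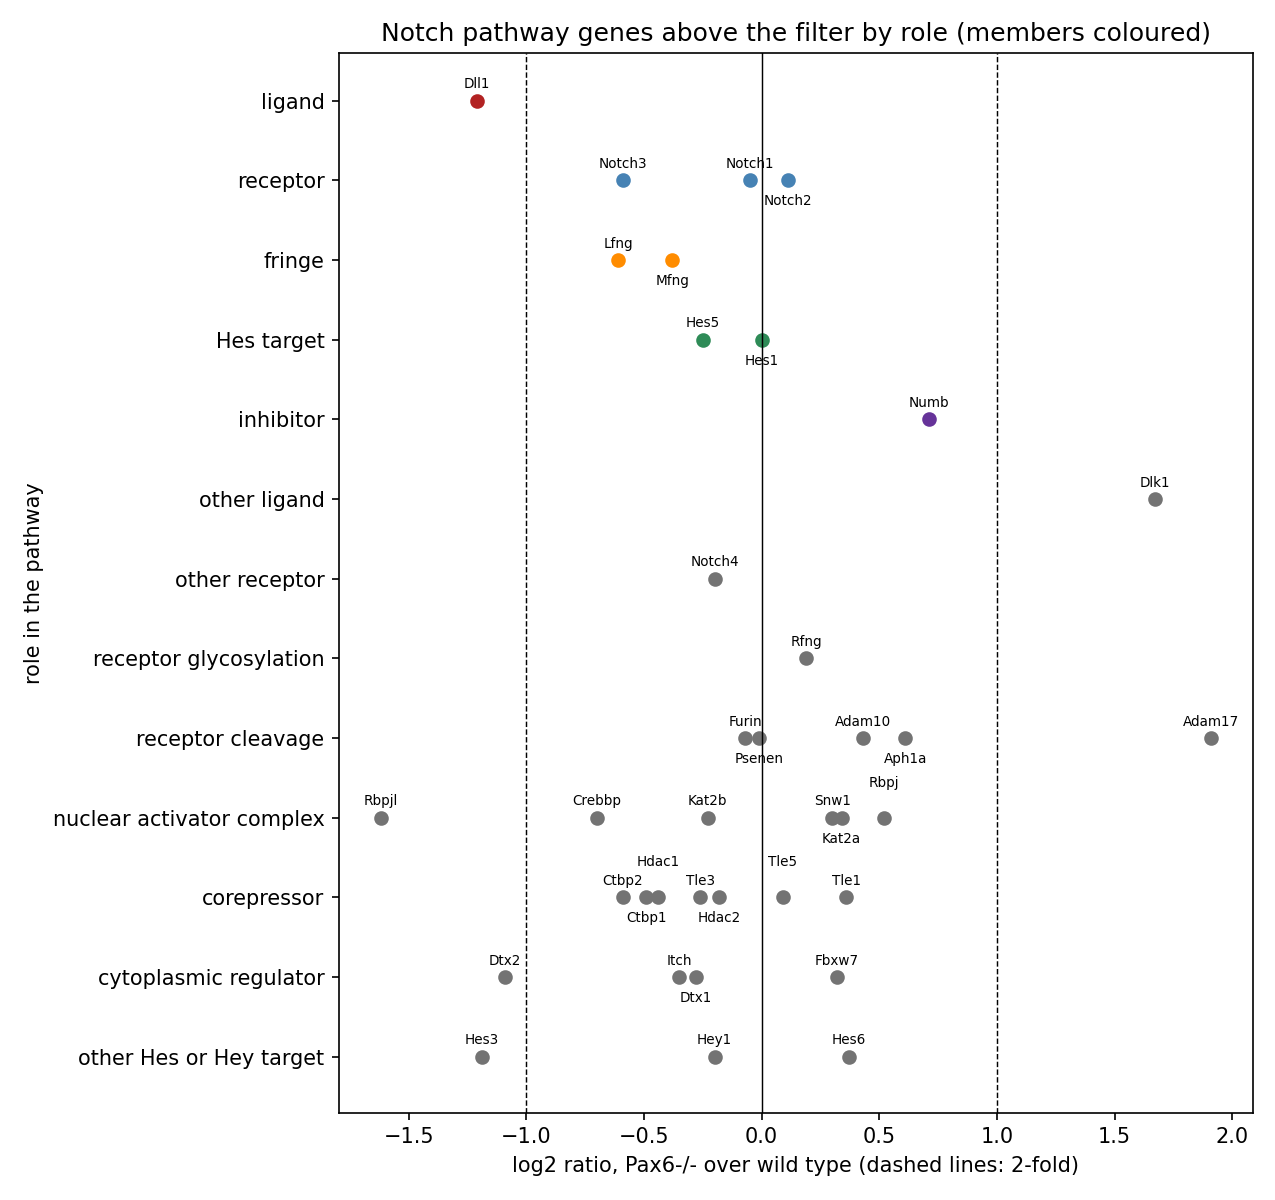
Log2 ratio, Pax6-/- over wild type, of the 9 members in colour and the 28 other Notch pathway genes in grey, each above the filter and drawn by role; dashed lines mark 2-fold. Dll1, Rbpjl, Hes3 and Dtx2 lie beyond the lower line and Dlk1 and Adam17 beyond the upper, while receptors, fringes and Hes1 and Hes5 lie between them.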

How the data were processed

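Biotinylated cRNA from total RNA was hybridised to 1 Affymetrix array a genotype, per the labels' protocols. The deposited values are linear MAS5 signal intensities, per the submitters' processing notes; the MAS5 version, detection calls and scaling target are not stated in the sources. Depth does not apply, and the number of arrays limits the precision. Median signals were 237.3 in wild type and 283.2 in the mutant over 12422 probe sets, controls left out. GEO's platform annotation gave 1 symbol for 10833 of them, several for 396 and none for 1193; 10817 matched the RefSeq gene table (GRCm38.p6).

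The pseudocount was the 25th percentile of all signals, the filter the 40th percentile of the mean log2 value, and centring removed a shift of 0.05. For counts of genes, the probe set of highest mean log2 value stood for the gene. Technical spread is the SD of the difference between the 2 brightest probe sets of 893 genes, divided by the square root of 2, in 3 equal groups by mean signal, and was 0.72, 0.54 and 0.38 from dim to bright. Every member was named by every probe set. Of other lists, the rule allowed genes past 2-fold, the extremes of each role, and proneural and radial glial genes. Crebbp, Aph1a, Psenen, Adam10, Hey1 and several cell type markers were named outside this rule. Members and lists were chosen with earlier results of these data known. No test between genotypes was possible. Alternatives left out the centring, scaled by quantiles or loess, changed the pseudocount (none, or the 50th percentile), the filter (none, or the 60th percentile), the probe sets used for a gene and the threshold (1.5-fold or 3-fold). The steps were tested on simulated data with less noise than the technical spread of these arrays and with changes planted in brighter probe sets only. That test does not show how well changes are recovered at the noise of these arrays or in dim genes. Python 3.11.15, numpy 2.4.6, pandas 2.3.3, statsmodels 0.14.6 (loess, fraction 0.4, 3 iterations) and matplotlib 3.10.9 were used.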

Additional observations from a re-analysis of the deposited data

How the results depend on the processing

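All 94 recomputed values of member probe sets and all 70 recomputed medians of members, roles and the pathway list moved by less than the technical spread (for medians, the spread over the square root of the number of genes). The counts past the threshold moved more. With the 50th-percentile pseudocount 0 members and 0 other pathway genes were at least 2-fold lower and 2 other pathway genes higher, while over all genes the counts went from 305 lower and 282 higher to 128 and 90. At 1.5-fold 3 members were lower and 1 higher, and 5 other pathway genes were lower and 3 higher, with 843 and 784 over all genes; at 3-fold 0 members were lower, and 1 other gene was lower and 2 higher, with 68 and 58 over all genes. With the 60th-percentile filter 1 other gene was lower and 1 higher, with 114 and 97 over all genes, as fewer genes were tested. Leaving out probe sets with the r suffix, Affymetrix's mark for relaxed probe choice, changed neither count of members. No r-suffix probe set of a member was past 2-fold, so the counts could hardly change. Sox2 was measured by an r-suffix probe set only and has no value under this setting. Without Adam17 and Rbpjl 2 other pathway genes were lower and 1 higher. Both of these settings were added after seeing the data. No paired analysis was possible because each genotype has 1 array.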
